A study of Bos taurus and other sequences with 9 samples.

Results

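C/D box small nucleolar RNAs (snoRNAs) were examined in RNA isolated with an extracellular vesicle (EV) kit from 9 culture media. The members were all loci of the deposited small ncRNA table that were typed as snoRNA and whose name started with SNORD or with U and a number. This gave 82 loci with a SNORD name and 27 with a U name (25 copies of U3 and 2 of U8), all but 54 of the 163 snoRNA loci among 1361 small ncRNA loci in the table. Those 54, among them H/ACA box and Cajal body RNAs, served as the comparison set. They include 12 loci named snoU13 and 1 named RNU3P3, which by family are C/D box RNAs but fall outside the naming rule.

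C/D box snoRNAs are short, mostly intron-encoded RNAs with the conserved C and D sequence motifs, which assemble with fibrillarin and its partner proteins in the nucleolus. Most of them pair with ribosomal or spliceosomal RNA and guide ribose methylation there, whereas U3, U8 and U14 take part in the cleavage of the ribosomal RNA precursor. They are nuclear RNAs of every cell, and fragments of them are found outside cells in serum.

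The media were basal medium with fetal bovine serum (FBS-1 from Sigma and FBS-2 from Gibco) or with commercial exosome-depleted serum from System Biosciences (SBI-dFBS, 2 samples). Others held serum depleted by ultracentrifugation (UC-dFBS) or by ultrafiltration (UF-dFBS), and 1 sample was the defined serum-free medium StemPRO. Serum was diluted in the FBS-based media, so their levels are not those of neat serum. UC-dFBS-1 and UF-dFBS-1 were made from FBS-1, and UC-dFBS-2 and UF-dFBS-2 from FBS-2, so that the spread within a medium includes the difference between the suppliers. All samples were media without cells, and their RNA was captured on a membrane column before small RNA library preparation with unique molecular indices. The RNA can be vesicular or not, and in such bulk samples these fractions, and fewer carriers as against less RNA per carrier, cannot be told apart.

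Levels are given as spike-in normalized values, the deposited counts divided by a factor per library that the authors derived from added synthetic RNAs. The paper states that these RNAs were of miRNA size, so that scaling is likely less accurate for longer small ncRNAs than for miRNAs. The libraries held between 6679 counts in StemPRO and 6867736 in UF-dFBS-1, and 1 count stood for a normalized value of 0.111 to 0.265 in FBS, SBI-dFBS and UC-dFBS. It stood for 0.0181 in UF-dFBS-1, for 0.0416 in UF-dFBS-2 and for 0.00926 in StemPRO, so that lower levels could be seen there. A count of 0 therefore allowed a level of up to 0.794 in SBI-dFBS-2 but only 0.0278 in StemPRO, taking 3 counts as the limit. Reads were assigned to human loci, although the 8 FBS-based media hold bovine serum, and copies of near-identical sequence such as those of U3 could share reads, so the split between such copies is uncertain.

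The C/D box signal was sparse. The C/D box loci held 1772 counts in total over the 9 libraries. In all libraries together, 54 loci had 1 count and 26 had 2 counts, another 23 had 3 to 9, and 6 had 10 or more. In 64 of the loci the counts fell in 1 library, and SNORD94 was the only locus with counts in all 9. The loci with at least 10 counts in any library were SNORD94, SNORD57.1, SNORD20 and SNORD61.

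**Figure D1:**
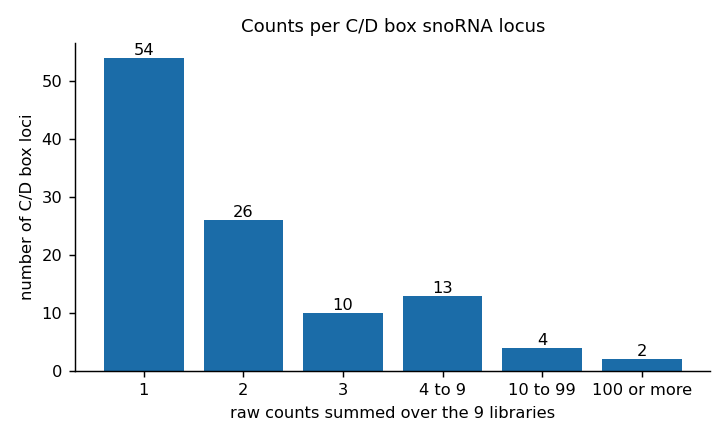
Number of C/D box snoRNA loci (vertical axis) by their raw counts summed over the 9 libraries (horizontal axis, binned). The bars for 1 and 2 counts hold 54 and 26 loci, and 2 loci had 100 or more counts.

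SNORD94, which guides methylation of the U6 spliceosomal RNA and is encoded in an intron of PTCD3, carried 62.8% of all C/D box counts. Its locus of 137 bases lies on chromosome 2 of GRCh37, from 86362993 to 86363129. SNORD57.1, at the NOP56 host gene on chromosome 20 from 2637585 to 2637656, held 17.7% of the counts, and SNORD20, at the nucleolin gene on chromosome 2 from 232321155 to 232321234, held 4.51%. Both belong to the guides for methylation of the small-subunit ribosomal RNA. Per 100 bases of locus, the mean spike-in normalized value over the 8 FBS-based libraries was 15.7 for SNORD94, 5.81 for SNORD57.1, 0.731 for SNORD61 (in the RBMX gene on the X chromosome, from 135961358 to 135961430) and 0.719 for SNORD20. The levels of SNORD61 and SNORD20 rested on few counts and their order was not resolved.

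The make-up of the C/D box counts differed between libraries. SNORD94 accounted for 55.1% of them in FBS-1, 84.9% in FBS-2, 88.1% in SBI-dFBS-1, 70.3% in SBI-dFBS-2, 63.3% in UC-dFBS-1 and 91.4% in UC-dFBS-2. In UF-dFBS-1 the share was 2.85%, in UF-dFBS-2 13.3% and in StemPRO 2.70%. SNORD94 was thus the majority of the C/D box counts in 6 libraries and a minor part in the other 3. The effective number of loci (the inverse of the summed squared shares) was 1.20 to 2.73 in the 6 libraries of FBS, SBI-dFBS and UC-dFBS. UF-dFBS-1 had 2.30, UF-dFBS-2 had 10.7 and StemPRO had 20.4. UF-dFBS-1 was led by SNORD57.1 with 152 of 246 counts and SNORD20 with 56, whereas the 15 counts of UF-dFBS-2 and the 37 of StemPRO were scattered over 12 and 28 loci.

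**Figure D2:**
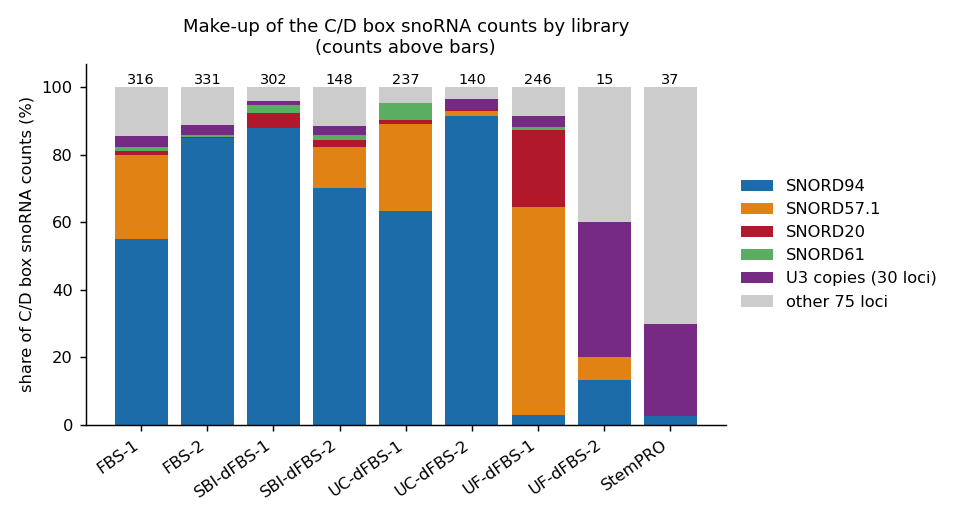
Share of the C/D box snoRNA counts (percent, vertical axis) taken by SNORD94, SNORD57.1, SNORD20, SNORD61, the 30 copies of U3 and the other 75 loci in each library (horizontal axis), with the C/D box counts above the bars. SNORD94 took 55.1% to 91.4% in the first 6 libraries and 2.85% to 13.3% in UF-dFBS and StemPRO.

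FBS-1 had counts in 46 loci and FBS-2 in 35, while the SBI-dFBS libraries had 16 and 20 and the UC-dFBS libraries 11 and 12. UF-dFBS had 27 and 12 loci with any count, and StemPRO 28. More C/D box loci were thus seen in StemPRO than in UC-dFBS, where 1 count stood for a value of 0.153 and 0.147. Of the 61 loci seen in FBS, 16 were also seen in UF-dFBS, which is 26.2% of the FBS loci and 47.1% of the 34 UF-dFBS loci. With StemPRO, FBS shared 8 loci, 13.1% of its own and 28.6% of those of StemPRO. The same overlaps over all small ncRNA loci were not computed, so these shares cannot be called particular to C/D box loci. Since most loci had 1 or 2 counts, a locus without counts in a library cannot be called absent there.

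The first question was how much C/D box snoRNA the depletion methods left. The summed value was 65.2 (95% exact Poisson interval 58.2 to 72.8) in FBS-1 and 44.4 (39.7 to 49.5) in FBS-2. In SBI-dFBS it was 33.4 (29.7 to 37.4) and 39.2 (33.1 to 46), and in UC-dFBS 36.3 (31.8 to 41.2) and 20.5 (17.3 to 24.2). UF-dFBS had 4.45 (3.91 to 5.05) and 0.624 (0.350 to 1.03), and StemPRO 0.342 (0.241 to 0.472). Both UF-dFBS libraries lay below every FBS, SBI-dFBS and UC-dFBS library, the FBS libraries were the highest, and SBI-dFBS and UC-dFBS overlapped. These intervals cover counting error only.

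On average the C/D box sum of FBS was 54.8 ± 14.7, that of SBI-dFBS 36.3 ± 4.09 and that of UC-dFBS 28.4 ± 11.1 (SD, n = 2 each), so that SBI-dFBS held 66.2% and UC-dFBS 51.8% of the FBS mean. UF-dFBS held 2.54 ± 2.71 (SD, n = 2), 4.63% of FBS and 15.7-fold below the mean of 39.8 ± 14.8 over the 6 other FBS-based libraries. Without SNORD94 the difference was 4.57-fold, and without SNORD94, SNORD57.1 and SNORD20 it was 10.2-fold. The size rested on which UF-dFBS library was taken, since the ratio to the 6 libraries was 0.0157 for UF-dFBS-2 and 0.112 for UF-dFBS-1. As a share of all counts of the library, the log2 difference of UF-dFBS from the 6 libraries was -0.53 instead of -3.97. It turned to 0.47 without FBS-2, where C/D box loci held 0.0548% of all counts against 0.00248% to 0.0153% in the other 5, while UF-dFBS-1 had 0.00358% and UF-dFBS-2 had 0.0182%. On that scale the difference of SBI-dFBS from FBS was -2.75 instead of -0.60. An exact two-sided permutation test cannot go below p = 0.0714 with 2 samples against 6 or below 0.333 with 2 against 2, so no difference between sums could pass 0.05.

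**Figure D3:**
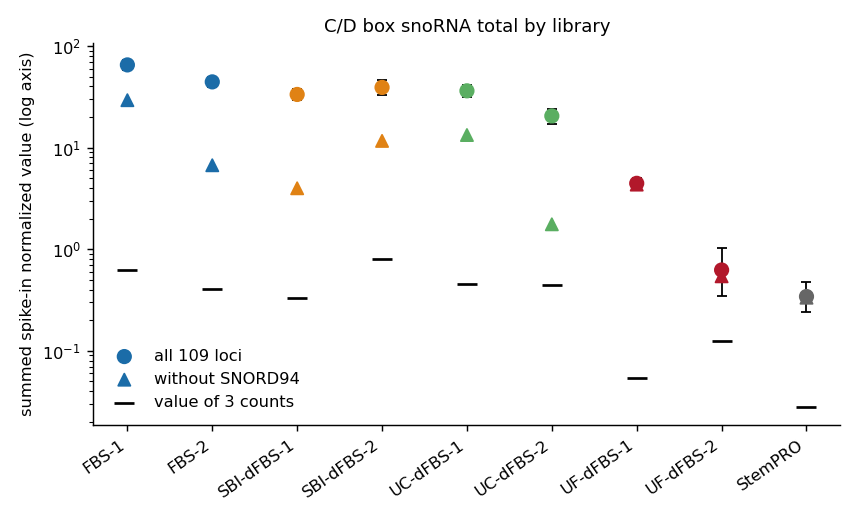
Summed spike-in normalized value of the C/D box snoRNAs (vertical log axis) in each library (horizontal axis), for all loci (circles, with 95% exact Poisson intervals) and without SNORD94 (triangles), with the value of 3 counts as black dashes. The sums of all loci in UF-dFBS and StemPRO, 0.342 to 4.45, lie below the 20.5 to 65.2 of the other libraries, whereas without SNORD94 UF-dFBS-1 at 4.33 lies above SBI-dFBS-1 at 3.98 and UC-dFBS-2 at 1.76.

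SNORD94 was the larger part of the C/D box sum in FBS, SBI-dFBS and UC-dFBS, but a minor part in UF-dFBS and StemPRO. FBS-1 held a value of 35.9 and FBS-2 37.7, the SBI-dFBS libraries 29.4 and 27.5, and the UC-dFBS libraries 22.9 and 18.8, from 104 to 281 counts per library. In UF-dFBS it was 0.127 from 7 counts and 0.0833 from 2 counts, and in StemPRO 0.00926 from 1 count. The first 6 values fell in the order FBS, SBI-dFBS, UC-dFBS, and both UF-dFBS values lay far below them without overlap. The mean was 28.7 ± 7.30 (SD, n = 6) against 0.105 ± 0.0307 (SD, n = 2) in UF-dFBS, a 273-fold difference. Among the loci with enough counts to be tested, 37.2% (135 of 363) also had both UF-dFBS values below the 6 others.

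In the edgeR quasi-likelihood fit over 363 loci on the spike-in scale, no C/D box locus passed a Benjamini-Hochberg adjusted p of 0.05 in any comparison of media, where 0% of the loci tested passed. All members but 3 lacked the 10 counts in 2 libraries that the fit required, the 3 being SNORD94, SNORD57.1 and SNORD20. For SNORD94 the log2 change of UF-dFBS against FBS was -8.33 (SE 2.02, edgeR adjusted p = 0.0824), against a median of -3.63 over all loci tested, and it ranked 7 of 363 from the lowest. It met the filter through the 6 libraries in which it was high, and without the filter it stood at -8.33 as well (edgeR adjusted p = 0.0706). Against the mean of the other 3 media it was -7.93 (SE 1.93, edgeR adjusted p = 0.101). At an unadjusted p under 0.05 the edgeR fit held 29.8% of the loci for UF-dFBS against FBS and 31.1% against the mean of the 3 media, with SNORD94 the only member among them.

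Since UF-dFBS and UC-dFBS were made from the same sera as FBS, the serum was also fitted as a replicate block. SNORD94 then passed, with a log2 change of -8.35 (SE 1.33, edgeR adjusted p = 1.92e-07), as did 213 of 322 loci (66.1%). Against the mean of FBS and UC-dFBS in the same blocked edgeR fit, SNORD94 stood at -7.93 (adjusted p = 3.12e-07), as 62.1% of the loci passed. SNORD57.1 stood at -2.09 there (edgeR adjusted p = 0.0402). In unblocked fits against the mean of the other 3 media, SBI-dFBS included, it was 1.29 with TMM and 1.81 with DESeq2's own size factors. Almost all its counts in the blocked fit were of the Sigma serum, with 79 in FBS, 61 in UC-dFBS and 152 in UF-dFBS. The Gibco serum gave 0, 2 and 1 counts, too few to replicate the change. SNORD57.1 also met the filter only through its Sigma libraries, so its value here is a description. DESeq2 with the spike-in factors also called SNORD94 in UF-dFBS against FBS, at -8.43 with an adjusted p of 3.04e-06, as it did 37.2% of the loci. Against the mean of the other 3 media, DESeq2 called SNORD94 with the spike-in factors, among 51.5% of the loci, and with its own size factors, among 3.86%. In all these fits SNORD94 met the filter only through libraries in which it was high. The blocked and DESeq2 fits were not run without the filter, so these calls are a description.

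For UC-dFBS and SBI-dFBS the changes of SNORD94 were small beside their errors. Against FBS the log2 change was -0.82 (SE 1.48, edgeR adjusted p = 0.989) in UC-dFBS and -0.37 (SE 1.47, edgeR adjusted p = 0.980) in SBI-dFBS, and the medians over all loci were -0.87 and 1.1. At an unadjusted p under 0.05, edgeR held 12 of 363 loci for UC-dFBS (3.31%) and 4 for SBI-dFBS (1.1%), none of them a member. DESeq2 with the spike-in factors called 0% and held 4.13% and 1.38% at that unadjusted level, again with no member. Under the serum block, edgeR called 8 of 322 loci for UC-dFBS (2.48%), and no C/D box locus was among them.

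Compared within each serum, the level of SNORD94 left in UF-dFBS was 0.353% of FBS (95% counting interval 0.140% to 0.743%) for the Sigma serum and 0.221% (0.027% to 0.805%) for the Gibco serum. The C/D box sum fell to 6.83% (5.76% to 8.09%) in the Sigma serum and to 1.41% (0.778% to 2.35%) in the Gibco serum. The intervals of the C/D box sum did not overlap. Those of SNORD94 did, but they rested on 7 and 2 counts in UF-dFBS, too few to show a like share in both sera. Without SNORD94 the C/D box sum was left at 14.8% (11.9% to 18.3%) in the Sigma serum and at 8.07% (4.02% to 15.1%) in the Gibco serum, with overlapping intervals. Leaving out SNORD57.1 and SNORD20 as well, 4.53% was left in the Sigma serum and 7.60% in the Gibco serum.

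For comparison, the other snoRNA loci together were left at 8.10% and 8.73%, Y RNA at 7.63% and 6.01%, tRNA at 15.8% and 5.28% and snRNA at 48.9% and 4.21% in the Sigma and Gibco sera. Of the other snoRNA counts, SCARNA17, a Cajal body RNA, held 42 of 60 in UF-dFBS-1 and 11 of 18 in UF-dFBS-2, and without it 2.55% (1.42% to 4.36%) and 3.50% (1.35% to 7.66%) were left. The snoU13 and RNU3P3 loci held 5 of the 18 remaining counts in UF-dFBS-1 and 2 of the 7 in UF-dFBS-2. The miRNA total was left at 0.181% and 0.234%. SNORD94 was nearer to the miRNA total than to the other snoRNA loci in both sera, with or without SCARNA17, and its interval did not reach the lower bound of any of these other small ncRNA sets. The spike-in scale is likely more accurate for miRNA than for the other sets, which limits this comparison.

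**Figure D4:**
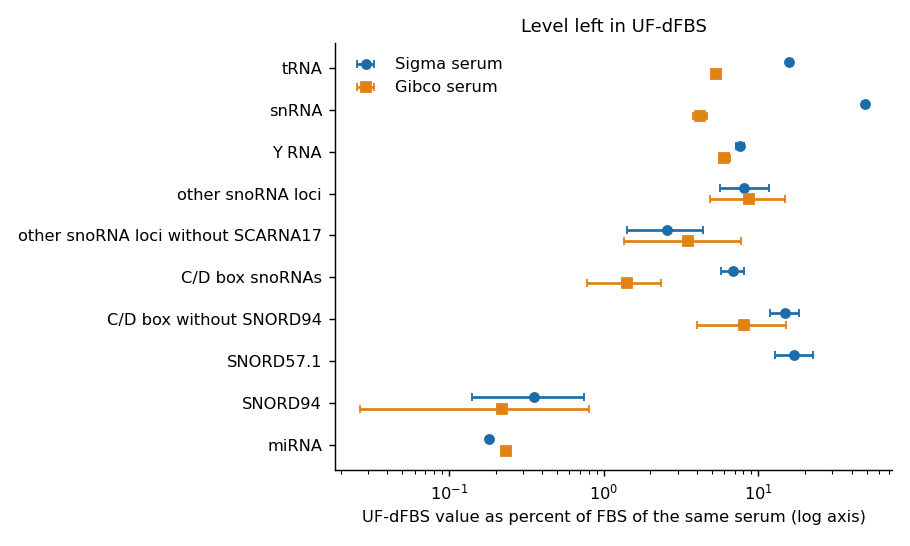
Spike-in normalized value in UF-dFBS as percent of FBS of the same serum (horizontal log axis, 95% counting intervals) for RNA classes and C/D box loci (vertical axis), in the Sigma serum (circles) and the Gibco serum (squares). The other snoRNA loci are drawn with and without SCARNA17. SNORD94 at 0.353% and 0.221% sits beside the miRNA total at 0.181% and 0.234%, while SNORD57.1 was left at 16.9% in the Sigma serum and is not drawn for the Gibco serum, where FBS had no count.

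Ultracentrifugation left more. In UC-dFBS the C/D box sum was 55.6% (46.8% to 66.0%) of FBS in the Sigma serum and 46.2% (37.7% to 56.5%) in the Gibco serum, and SNORD94 was left at 63.9% and 49.8%. The 2 sera gave overlapping intervals. Of the other snoRNA loci 28.5% and 42.7% were left, and of the C/D box loci other than SNORD94, SNORD57.1 and SNORD20, 28.4% and 20.1%.

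The second question was how far the C/D box signal differed between the sera. SNORD57.1 was seen mainly in the libraries of the Sigma serum. FBS-1 had a value of 16.3, UC-dFBS-1 of 9.33 and UF-dFBS-1 of 2.75, from 79, 61 and 152 counts, all made from the Sigma serum. In the Gibco serum, FBS-2 had no count, UC-dFBS-2 had 0.293 from 2 counts and UF-dFBS-2 had 0.0416 from 1 count. In SBI-dFBS it was 0 in SBI-dFBS-1 and 4.77 in SBI-dFBS-2 from 18 counts, and StemPRO had none. The Sigma libraries were thus high and the Gibco libraries near 0.

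In the edgeR fit with medium as a term, SNORD57.1 had a log2 change of 6.21 in Sigma against Gibco (SE 0.902, edgeR adjusted p = 7.71e-07). It was called among 174 of 280 loci (62.1%), all of them higher in Sigma, and the median over all loci tested was 3.13. Since SNORD57.1 met the filter of 10 counts in 3 libraries only through its Sigma libraries, its direction here was fixed by the filter and the value is a description. Without the filter its log2 change was 6.22 (SE 1.05, edgeR adjusted p = 2.01e-06). In FBS it was at least 40.5-fold higher in Sigma, taking the Gibco count of 0 as 3 counts (exact 95% lower limit of the ratio 32.2), and in UC-dFBS and UF-dFBS the ratios were 31.8 (95% counting interval 8.44 to 269) and 66.1 (11.7 to 2628). With TMM scaling of the total counts the call was lost (log2 change 2.75, edgeR adjusted p = 0.0722), as it was without the medium term, where 0% of the loci passed (edgeR adjusted p = 0.0755), and without FBS-1, UC-dFBS-1 or UF-dFBS-1 SNORD57.1 no longer had enough counts to be tested.

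SNORD94, in contrast, was at like levels in the sera. The ratio of Sigma to Gibco was 0.953 (0.784 to 1.16) in FBS, 1.22 (0.960 to 1.56) in UC-dFBS and 1.52 (0.290 to 15) in UF-dFBS. The 2 lots of SBI-dFBS gave a ratio of 1.07 (0.849 to 1.35). Every one of these intervals included 1, but that of UF-dFBS rested on 7 and 2 counts and was wide. On the spike-in scale the log2 change of Sigma against Gibco was 0.21 (SE 0.786, edgeR adjusted p = 0.839), rank 33 of 280 from the lowest, whereas with TMM it was -3.30 (edgeR adjusted p = 0.00233) and with DESeq2's own size factors -2.79 (adjusted p = 0.00101). These scalings called 30% and 52.1% of the loci, and the medians over all loci were -0.58 and 0.02. The direction of SNORD94 between the sera therefore followed the scaling, and relative to the median locus it was lower in Sigma under all 3.

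The C/D box sum was 1.47-fold (1.26 to 1.72) higher in Sigma than in Gibco in FBS, 1.77-fold (1.43 to 2.19) in UC-dFBS and 7.13-fold (4.24 to 12.9) in UF-dFBS, but over the 3 media the log2 difference of 0.69 turned to -2.28 as a share of all counts and to -0.10 without FBS-1. Without SNORD94, SNORD57.1 and SNORD20 the ratio was 1.88 (1.27 to 2.81), 2.67 (1.19 to 6.55) and 1.12 (0.561 to 2.40). With 3 samples against 3 an exact two-sided permutation test cannot go below p = 0.1.

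SNORD20 showed a further pattern. FBS-1 had a value of 0.619 and FBS-2 of 0.134, the SBI-dFBS libraries 1.44 and 0.794, and the UC-dFBS libraries 0.459 and 0.147. UF-dFBS-1 had 1.01, and neither UF-dFBS-2 nor StemPRO had a count. The value in UF-dFBS-1 rested on 56 counts and those in the other libraries on 1 to 13 counts. UF-dFBS-1 was thus within the range of the untreated and other depleted sera, while the upper limit of 0.125 in UF-dFBS-2 was under the value of each of the 7 libraries with counts, of which FBS-2 and UC-dFBS-2 rested on 1 count. Within the Sigma serum UF-dFBS held 164% of the FBS value (95% counting interval 53.2% to 818%), and SNORD57.1 16.9% (12.8% to 22.4%). The log2 change of SNORD20 in UF-dFBS against FBS was 0.51 (SE 1.84, edgeR adjusted p = 0.913), rank 359 of 363, and it turned to -0.25 without FBS-2. SNORD20 met the filter only through UF-dFBS-1 with 56 counts and SBI-dFBS-1 with 13, so this value and its rank are a description. Without the filter the log2 change was 0.54 (SE 1.56, edgeR adjusted p = 0.962).

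SNORD61 had 4 and 2 counts in the FBS libraries, 7 and 2 with SBI-dFBS, 12 and 0 with UC-dFBS, 2 and 0 with UF-dFBS and none with StemPRO. Its highest level, 1.84, was in UC-dFBS-1, and it reached 10 counts in that library only, so it was not tested in the filtered fit. In the comparison of the suppliers without the filter on low counts, SNORD57.1, SNORD20 (log2 change 3.58, edgeR adjusted p = 0.00827) and SNORD61 (3.12, edgeR adjusted p = 0.0372) passed, as did 15.2% of 1176 loci.

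**Figure D5:**
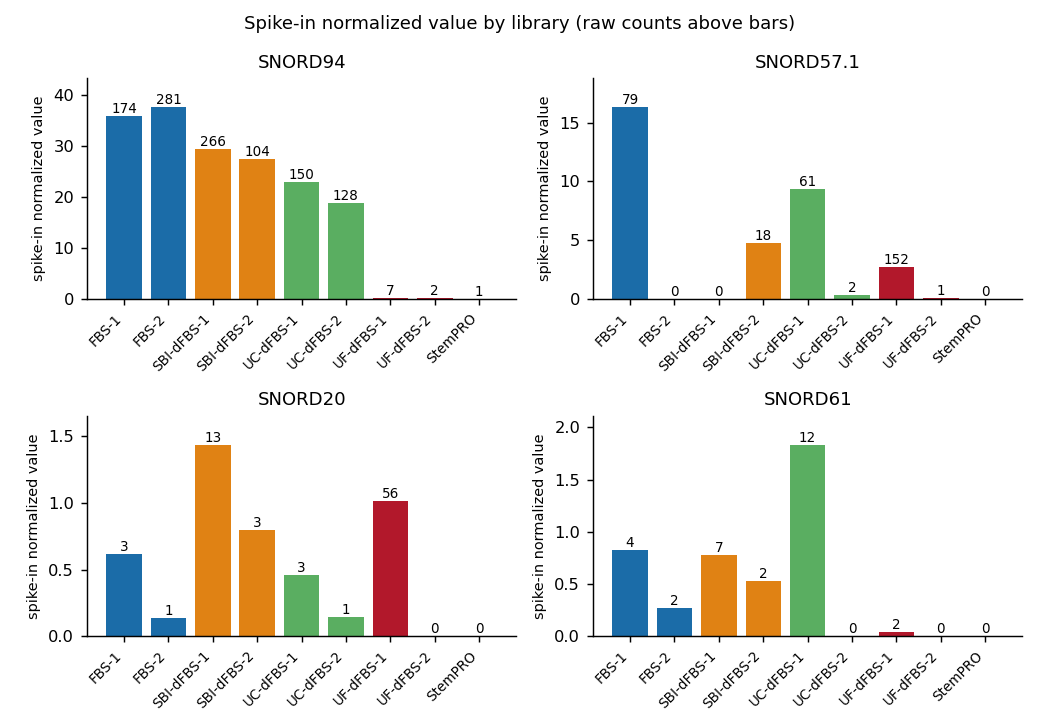
Spike-in normalized value (vertical axes, linear and starting at 0) of the 4 C/D box loci with at least 10 counts in a library, in each of the 9 libraries (horizontal axes), with raw counts above the bars. SNORD94 stands between 18.8 and 37.7 in the first 6 libraries and at 0.127 or below in UF-dFBS and StemPRO, and SNORD57.1 is highest in FBS-1 at 16.3.

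The RNAs of ribosomal RNA precursor processing (U3, U8, U14 and U22) made up 38 of the loci but only 78 of the 1772 counts, with at most 3 counts for a locus in a library. The 30 loci of U3 had 10 counts in each FBS library, 4 in each SBI-dFBS library, none in UC-dFBS-1 and 4 in UC-dFBS-2. They had 8 and 6 counts in UF-dFBS and 10 in StemPRO. As summed values FBS had 2.06 and 1.34, SBI-dFBS 0.442 and 1.06, UC-dFBS 0 and 0.586, UF-dFBS 0.145 and 0.250 and StemPRO 0.0926. UF-dFBS was below FBS and SBI-dFBS and overlapped UC-dFBS, where the limit for a count of 0 in UC-dFBS-1 was 0.459. SNORD3B-1, a U3 gene, had 9 counts over 5 libraries, and SNORD14E, a copy of U14, had 6 over 4.

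The snoRNAs of the imprinted DLK1-DIO3 region, most of which have no known RNA target, were the next group. The 4 loci on chromosome 14 (SNORD113-9, SNORD113.3, SNORD113.2 and SNORD114-26) had 5 and 11 counts in the FBS libraries. SBI-dFBS had 1 and 4, UC-dFBS 5 and 2, UF-dFBS 1 and 1 and StemPRO 0. SNORD113-9 led with 9 counts in FBS-2, 2 in FBS-1, 3 and 1 in UC-dFBS, 1 in UF-dFBS-2 and none elsewhere. In a fit without the filter on low counts, SNORD113-9 passed for UF-dFBS against FBS with a log2 change of -5.16 (edgeR adjusted p = 0.0457), as did 3.7% of the 1271 loci. In the other imprinted cluster, at SNRPN, 10 loci of SNORD116 on chromosome 15 had 19 counts, with 4 and 5 for FBS, 1 and 4 for SBI-dFBS, 2 and 1 for UC-dFBS, none for UF-dFBS and 2 for StemPRO. The counts of both clusters were too low for a test of any locus in the filtered fit.

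Loci of the ribosomal protein host genes listed, among them RPL13A, RPL4, RPL3 and RPL17, gave 26 counts over 11 loci, 9 of them in FBS-1, 3 in FBS-2, 4 in SBI-dFBS-1, 1 in SBI-dFBS-2 and none in UC-dFBS. In UF-dFBS they had 3 and 2 counts, and in StemPRO 4. SNORD58C, hosted by RPL17, had 4 counts in FBS-1 and no others, and SNORD33, hosted by RPL13A, had 9 counts over 5 libraries. The list was not complete, and the genes left out included RPL5 and RPS13, which host SNORD21 with 2 counts in FBS-1 and SNORD14A and SNORD14B with 1 count each. The 4 loci hosted by SNHG1 had 6 counts and the 3 hosted by GAS5 had 7, of which 4 were of SNORD80 in StemPRO. Among the remaining members of highest summed value, SNORD2.2 had 7 counts, SNORD104 had 6 and SNORD95.1 had 4. None of these had over 3 counts in an FBS-based library apart from SNORD58C.

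The balance of C/D box to other snoRNA does not depend on the spike-in factor. C/D box loci made up 82.9% and 83.8% of the snoRNA counts of FBS-1 and FBS-2, 88.8% and 91.4% of those of SBI-dFBS, 90.5% and 84.8% of those of UC-dFBS and 80.4% of those of UF-dFBS-1. In UF-dFBS-2 the share was 45.5% (95% Wilson interval 29.8% to 62.0%) and in StemPRO 24.8% (18.6% to 32.3%). UF-dFBS-2 and StemPRO had the lowest shares, and SCARNA17 held 11 of the 18 other snoRNA counts of UF-dFBS-2 and all but 11 of those of StemPRO. The ratio of C/D box to other snoRNA counts was 4.86 to 10.6 in FBS, SBI-dFBS and UC-dFBS and 4.10 and 0.833 in UF-dFBS. Without SCARNA17 it was 5.10 to 11.3 against 13.7 in UF-dFBS-1, above all 6, and 2.14 in UF-dFBS-2, below them, and StemPRO had 3.36. Without SNORD94 it was 0.480 to 3.48 against 3.98 and 0.722, so that UF-dFBS-1 moved above the 6 libraries while UF-dFBS-2 stayed below 5 of them. Leaving out SNORD57.1 and SNORD20 as well, UF-dFBS had 0.517 and 0.667, within the 0.360 to 1.64 of the 6.

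StemPRO, with 1 library and no test, had 37 C/D box counts in 28 loci, and the sum of 0.342 was 0.625% of the FBS mean. It held 23 loci with 1 count, 3 with 2 and 2 with 4, the last being SNORD80 and SNORD112.18, a locus on chromosome 2 named after the DLK1-DIO3 family. SNORD3B-1 had 2 counts. SNORD94 had 1 count, and 13 of the 28 loci were seen in StemPRO only. The same share over all small ncRNA loci was not computed, so it cannot be called particular to C/D box loci. As most of the 28 loci had 1 count, these 13 cannot be called absent from the other media. Per count, the value in StemPRO was the smallest of the 9 libraries, so its loci were detected at levels that the FBS, SBI-dFBS and UC-dFBS libraries could not resolve.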

How the data were processed

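RNA isolated from 9 media with an EV kit had been sequenced after QIAseq miRNA library preparation. The authors trimmed reads with cutadapt 1.11, collapsed them by unique molecular index and mapped them with Bowtie2 2.2.2 to spike-ins, miRBase and human GRCh37. How reads matching several loci were placed is not given in the sources used here. The deposited counts are unnormalized reads per locus, and the spike-in normalized values are a signal that the authors obtained by scaling each count with a factor fitted to added external spike-ins, whose error was not analysed here. The factor was checked to be constant within each library, and the authors' tables hold no further sample columns.

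Loci were matched between the deposited tables by name, type and position. The members and gene lists were chosen with earlier results of these data known. Members were given singly if they had at least 10 counts in a library, were among the 12 with the largest summed value over the 8 FBS-based libraries or the 3 largest in StemPRO, or passed the threshold. The fits used edgeR 4.0.16 (quasi-likelihood, R 4.3.3) on the counts of all loci, with the spike-in factor as library size, at least 10 counts in 2 libraries (3 for the comparison of the suppliers, fitted with medium as a term) and Benjamini-Hochberg adjustment over all loci tested at 0.05. The scripts were tested on simulated data. DESeq2 1.42.0, TMM scaling, no filter, the serum as replicate block and leaving out each library were alternatives. P-values rest on the spread between these samples. Each medium had 1 library per serum or lot, so the spread between repeated preparations was not measured. Sums over members were given without p-values. Ratios carry exact 95% intervals for counting error, shares Wilson intervals, and a count of 0 was read as up to 3 counts.

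UC-dFBS and UF-dFBS came from the same sera as FBS, per the methods and the supplier labels, so the numbers pair these samples. Across 363 loci, deviations from the medium mean (log2, pseudocount 0.1) correlated at 0.76 for the pair FBS and UC-dFBS, 0.60 for FBS with UF-dFBS and 0.57 for UC-dFBS with UF-dFBS. SBI-dFBS lots were not paired, and correlated at -0.56 with FBS, -0.52 with UC-dFBS and -0.42 with UF-dFBS. The sign for SBI-dFBS depends on the order of its lots. The correlations alone therefore do not show the pairing, which rests on the methods and the labels.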

Additional observations from a re-analysis of the deposited data

Results flagged for a closer look

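StemPRO, which entered no comparison, held 37 C/D box counts in 28 loci, above the 3 counts that a count of 0 allows for the sum. No locus exceeded 4 counts there, and SNORD94 had 1 count.

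Outside the naming rule, 12 loci named snoU13 and 1 named RNU3P3, which by family are C/D box RNAs too, held 25 counts over all libraries. The snoU13 loci had 14 of these, 5 of them in StemPRO, and RNU3P3 had 11, of which 5 were in FBS-2.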

How the results depend on the processing

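The log2 difference of the C/D box sum in UF-dFBS from the 6 other FBS-based libraries was -0.53 as a share of all counts, turned to 0.47 (0.46 against FBS) on that share without FBS-2, an alternative chosen after seeing the data, and was -6.00 to -3.16 on the spike-in scale when a library was left out. Leaving out a library gave -6.46 to -3.62 for UF-dFBS, -1.42 to -0.60 for UC-dFBS and -0.85 to -0.29 for SBI-dFBS against FBS. The Sigma against Gibco difference of the sum was 0.69, but -2.28 as a share of all counts and -0.10 to 1.74 without a library, negative without FBS-1; with medium as a replicate block it was 1.40. The log2 C/D box to other snoRNA ratio of UF-dFBS against the 6 was -1.91, but 0.25 without SNORD94, -0.42 without SNORD94, SNORD57.1 and SNORD20, -0.55 without SCARNA17 (added after seeing the data), and -3.06 to -0.76 without a library. Adding the snoU13 and RNU3P3 loci, or leaving out SNORD94, SNORD57.1 and SNORD20 together, both chosen after seeing the data, turned no sum.

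Against the count of 0 C/D box loci called in UF-dFBS against FBS, DESeq2 with spike-in factors, no filter and the serum block each called 1. Against the mean of the other 3 media, DESeq2 with spike-in factors and with its own size factors called 1 each. The serum block, which held no SBI-dFBS and set UF-dFBS against the mean of FBS and UC-dFBS, called 2. SNORD57.1 was among these 2, and its call rested on the counts of the Sigma serum. The blocked call counts for UC-dFBS stayed at 0. For Sigma against Gibco, 1 locus was called, with 2 under DESeq2's own size factors, 3 without the filter (SNORD57.1, SNORD20 and SNORD61), 0 without the medium term and 0 to 1 without a library. The cause was not tested, except that SNORD57.1 lost the counts needed for testing without FBS-1, UC-dFBS-1 or UF-dFBS-1. Settings with pooled spread assume that a lone sample varies like the other groups.

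Signs of the log2 changes of single loci turned as follows. With TMM and DESeq2's own size factors, SNORD57.1 gave 0.56 and 0.56 in UC-dFBS and 0.42 and 1.07 in UF-dFBS against FBS, and 1.29 and 1.81 in UF-dFBS against the mean of the other media. SNORD20 gave 0.62 and 0.50 in UC-dFBS, and SNORD94 -3.30 and -2.79 in Sigma against Gibco. Without a library, SNORD57.1 ranged from -10.05 to 8.23 in SBI-dFBS, -4.76 to 9.28 in UC-dFBS and -7.19 to 7.51 in UF-dFBS against FBS, the positive extremes without FBS-1, and -6.34 to 1.68 in UF-dFBS against the mean. In UC-dFBS without UC-dFBS-2, SNORD57.1 gave 0.20, and in UF-dFBS against the mean without SBI-dFBS-2 1.08. SNORD20 ranged from -1.26 to 1.12 in UC-dFBS and -0.25 to 1.89 in UF-dFBS against FBS, and from -0.20 to 1.01 against the mean, with -0.06 without SBI-dFBS-2, -0.15 without UC-dFBS-2 and, in UC-dFBS, 0.34 without UC-dFBS-2. With the filter on low counts, all members but 3 had too few counts to be tested between media.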
